A study of Mus musculus with 12 samples.

Results

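The hippocampus and the olfactory bulb of wild-type mice were compared by their transcripts. The wild-type animals were 3 adult C57BL/6 mice, housed in a conventional facility with exposure to common pathogens, and each gave 1 array of hippocampus and 1 of olfactory bulb. These 6 arrays were chosen from the 12 of the series by their titles. The other 6 came from the same tissues of 3 adult RasGRF2 knockout mice, also labelled C57BL/6. They served here to estimate the spread of each gene and as a second set of animals. Total RNA of the tissue was hybridised to 1-colour arrays, 1 sample per array. The comparison covered 19938 genes. A value below is a log2 intensity after robust multi-array averaging (RMA), a difference is the mean of the hippocampus arrays minus the mean of the bulb arrays, and a difference of 1 is 2-fold. Values of different genes come from different probes, so only tissues are compared, not genes.

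The hippocampus is a pallial structure. Its principal neurons, the dentate granule cells and the pyramidal cells of the CA fields, use glutamate and send their axons along the path from dentate gyrus to CA3 to CA1. The olfactory bulb is built the other way round: a layer of glutamatergic mitral and tufted cells takes the input of the olfactory nerve, and a far larger population of GABAergic granule and periglomerular cells shapes their output. Those interneurons descend from the ventral forebrain and the septum, and new ones arrive throughout life from the ventricular wall, while the adult hippocampus adds dentate granule cells. The olfactory nerve brings its own ensheathing glia into the bulb.

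Of the 19938 genes, 8148 (40.9%) passed the test between the tissues (limma, adjusted p under 0.05 over all genes), 3480 (17.5%) higher in hippocampus and 4668 (23.4%) higher in olfactory bulb. Most of these differences were small, since 7195 calls (88.3%) were under 2-fold. At least 2-fold, 427 genes (2.14%) were higher in hippocampus and 526 (2.64%) in olfactory bulb. The arrays of the tissues did not overlap for all 427 of the first and for 525 of the 526. Both sets were picked by size and test on these same arrays, so this adds no support. At 4-fold the counts were 62 and 109, and at 8-fold 9 and 24. The split of the calls between the tissues rests on how the arrays are scaled. Past 2-fold, centring the arrays on their medians gave 546 genes toward hippocampus and 434 toward bulb, and quantile normalization 451 and 496. Hippocampus took 42.7% of calls as deposited, 63.0% with arrays centred on their medians and 52.4% after quantile normalization, and the median difference of all genes moved from -0.071 to 0.0422 and 0.00398. Under these scalings every gene past 2-fold in the deposited values was still called in its direction, which its size in the same arrays made likely beforehand. Counts over gene lists are therefore given as deposited, against 17.5% and 23.4% of all genes toward hippocampus and bulb, and under median centring, against 24.6% and 14.5%. The lists were chosen with earlier results of these data known, so their counts describe the members and test nothing. In bulk tissue, fewer cells of a type and less RNA per cell cannot be told apart.

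Markers of the neurons of each region were mostly higher in the tissue labelled with it. All 9 measured markers of forebrain excitatory neurons were higher in hippocampus, as were 9 of 12 markers of dentate granule neurons and 11 of 15 of CA pyramidal neurons, with 3 and 2 higher in the bulb (9, 9 and 13 higher in hippocampus under median centring). In the bulb, 9 of 9 markers of periglomerular neurons, 11 of 12 of bulb granule cells and 10 of 12 of mitral and tufted cells were higher (8, 11 and 9 under centring). In the wild-type arrays the gene that is mutated in the other animals, Rasgrf2, read 9.32, 9.14 and 9.18 in hippocampus and 9.52, 9.52 and 9.47 in olfactory bulb, differing by -0.29 (SE 0.077, adjusted p = 0.00686). The knockout arrays read lower than the wild-type arrays of the same tissue, at 8.64, 8.76 and 8.49 in hippocampus and 9.33, 9.35 and 9.43 in olfactory bulb. No source used here says whether its probes lie in the mutated part of the gene. Array medians lay between 6.93 and 6.96 in all bulb arrays and between 6.82 and 6.89 in all hippocampus arrays. Wild-type replicates of a tissue correlated across probe sets with r of 0.990 to 0.995.

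**Figure D1:**
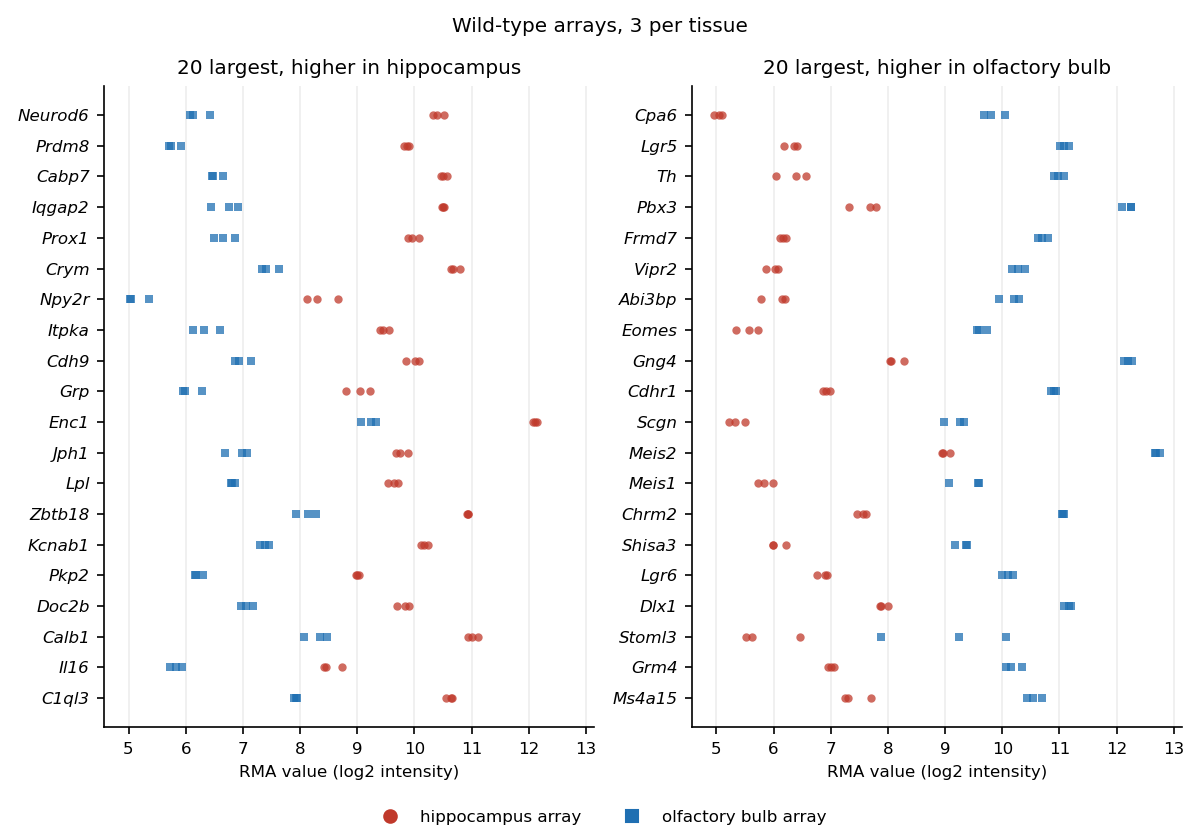
RMA values (log2 intensity) of the 20 named genes with the largest difference in each direction, 1 point per wild-type array. Tissues are apart by more than 2 log2 units on average in every row, and Stoml3 has the widest spread among the bulb arrays, from 7.87 to 10.07.

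The gene with the largest difference toward hippocampus was Neurod6, a basic helix-loop-helix factor of glutamatergic pallial neurons. Its arrays read 10.51, 10.33 and 10.40 in hippocampus and 6.07, 6.43 and 6.13 in olfactory bulb, differing by 4.20 (SE 0.101, adjusted p = 2.14e-13), or 18.4-fold. Prdm8, a PR-domain repressor of neuronal genes, read 9.88, 9.82 and 9.90 in hippocampus and 5.74, 5.92 and 5.71 in olfactory bulb and differed by 4.08 (SE 0.152, adjusted p = 1.93e-11). In the bulb arrays both read below the array medians, as did Prox1, Cabp7 and Iqgap2, described next. The values used here carry no detection calls, and RMA compresses differences near background. A fold against such a low value, here and below, is a ratio of RMA values that was not checked against background. Prox1, the homeobox factor that marks dentate granule cells, read 10.08, 9.96 and 9.89 in hippocampus and 6.65, 6.86 and 6.49 in olfactory bulb, differing by 3.31 (SE 0.101, adjusted p = 2.42e-12). The calcium-binding protein gene Cabp7 read 10.46, 10.58 and 10.50 in hippocampus and 6.65, 6.46 and 6.47 in olfactory bulb (15.8-fold), and Iqgap2, a scaffold that binds Rac and Cdc42, read 10.52, 10.49 and 10.51 in hippocampus and 6.77, 6.91 and 6.44 in olfactory bulb (13.9-fold). In none of these genes did a hippocampus array come within 2 log2 units of a bulb array.

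The other leading hippocampal genes had varied roles. Crym, a thyroid hormone-binding crystallin, was 9.46-fold higher, Itpka, which phosphorylates inositol trisphosphate and binds actin in spines, 8.7-fold, and the calcium buffer calbindin (Calb1) 6.6-fold. Cdh9, a cadherin of dentate and CA3 neurons, was 8.01-fold higher, and Pkp2, a plakophilin of desmosomes, 6.87-fold. The peptide gene Grp read 8.80, 9.05 and 9.22 in hippocampus and 6.28, 5.99 and 5.95 in olfactory bulb. The neuropeptide Y receptor gene Npy2r read 8.66, 8.12 and 8.29 in hippocampus and 5.04, 5.02 and 5.36 in olfactory bulb. Enc1, a kelch-like actin-binding protein, Jph1, a junctophilin that ties the endoplasmic reticulum to the plasma membrane, Lpl, lipoprotein lipase, and Zbtb18, a zinc finger repressor, lay between 7.03-fold and 7.49-fold higher. The remaining leaders were Kcnab1, a potassium channel beta subunit, Doc2b, a calcium sensor of transmitter release, Il16, a secreted cytokine with a neuronal form, and C1ql3, a synaptic C1q-like protein, at 6.47-fold to 6.96-fold.

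Toward the bulb, the leading measured differences reached further. Cpa6, an extracellular carboxypeptidase, read 5.10, 5.04 and 4.96 in hippocampus and 10.04, 9.69 and 9.81 in olfactory bulb, differing by -4.81 (SE 0.089, adjusted p = 1.79e-14). Its hippocampus arrays were below their array medians, as were those of Lgr5 and Th, described next. Lgr5, a receptor for R-spondins that raises Wnt signalling, read 6.19, 6.40 and 6.36 in hippocampus and 11.17, 11.01 and 11.08 in olfactory bulb, and its relative Lgr6 read 6.93, 6.90 and 6.76 in hippocampus and 10.10, 10.19 and 9.99 in olfactory bulb. The differences were -4.77 (SE 0.079, adjusted p = 1.31e-14) and -3.23 (SE 0.079, adjusted p = 2.61e-13). Tyrosine hydroxylase (Th), which makes dopamine in periglomerular cells, read 6.40, 6.57 and 6.05 in hippocampus and 10.90, 11.08 and 10.98 in olfactory bulb, differing by -4.65 (SE 0.111, adjusted p = 1.99e-13). Frmd7, a FERM-domain protein, was 23.3-fold higher in the bulb and Vipr2, a receptor for vasoactive intestinal peptide, 19.6-fold. The matrix protein gene Abi3bp was 17.2-fold higher.

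Markers of mitral and tufted cells, of granule cells and of periglomerular cells were all among the leaders. Cdhr1, a cadherin-related protein of mitral and tufted cells, read 6.99, 6.91 and 6.86 in hippocampus and 10.85, 10.95 and 10.90 in olfactory bulb. Gng4, a G protein gamma subunit, read 8.28, 8.05 and 8.04 in hippocampus and 12.20, 12.13 and 12.27 in olfactory bulb, and the calcium sensor secretagogin (Scgn) was 14.4-fold higher in bulb. The muscarinic receptor gene Chrm2 read 7.56, 7.45 and 7.62 in hippocampus and 11.05, 11.05 and 11.08 in olfactory bulb, and the metabotropic glutamate receptor gene Grm4 was 9.07-fold higher there. Shisa3, a Wnt and FGF pathway inhibitor, and Ms4a15, of the four-transmembrane MS4A family, were 9.47-fold and 8.81-fold higher. Stoml3, a stomatin-like protein of sensory neurons, was the exception in spread, with 10.07, 9.24 and 7.87 in the bulb arrays and 6.47, 5.52 and 5.62 in the hippocampus arrays (difference -3.19, SE 0.379, adjusted p = 6.22e-06).

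Promoter windows of a few of these genes are shown as examples from the leaders of each tissue. They come from RefSeq (GRCm38.p6) and run from 250 bases before to 50 after the start of the gene, 5′ to 3′ on its own strand. Capitals mark CAGATG or its reverse complement CATCTG, an E-box form bound by NeuroD-type factors, and TAATTA, a palindromic homeodomain site. Neurod6 lies at chr6:55681214-55681513 on the minus strand, Prox1 at chr1:190170778-190171077 (minus), Th at chr7:142899946-142900245 (minus) and Gng4 at chr13:13783809-13784108 (plus).
Neurod6: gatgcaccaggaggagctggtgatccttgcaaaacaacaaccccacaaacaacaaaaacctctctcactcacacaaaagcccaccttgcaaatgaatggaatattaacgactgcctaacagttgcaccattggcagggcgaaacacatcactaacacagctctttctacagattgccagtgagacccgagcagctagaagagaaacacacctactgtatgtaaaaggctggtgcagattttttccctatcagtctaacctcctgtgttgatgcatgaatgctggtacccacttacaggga
Prox1: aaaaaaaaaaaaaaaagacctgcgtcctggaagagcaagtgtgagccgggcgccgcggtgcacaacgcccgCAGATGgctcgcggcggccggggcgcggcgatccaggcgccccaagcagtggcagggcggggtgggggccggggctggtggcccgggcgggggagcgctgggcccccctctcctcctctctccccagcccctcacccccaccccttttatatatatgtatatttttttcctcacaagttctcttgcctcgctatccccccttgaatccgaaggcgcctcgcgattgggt
Th: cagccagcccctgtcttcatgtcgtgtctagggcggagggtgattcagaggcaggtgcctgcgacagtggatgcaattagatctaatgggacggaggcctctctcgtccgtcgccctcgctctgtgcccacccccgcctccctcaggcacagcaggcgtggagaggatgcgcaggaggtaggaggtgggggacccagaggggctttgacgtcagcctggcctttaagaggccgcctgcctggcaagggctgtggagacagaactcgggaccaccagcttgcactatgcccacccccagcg
Gng4: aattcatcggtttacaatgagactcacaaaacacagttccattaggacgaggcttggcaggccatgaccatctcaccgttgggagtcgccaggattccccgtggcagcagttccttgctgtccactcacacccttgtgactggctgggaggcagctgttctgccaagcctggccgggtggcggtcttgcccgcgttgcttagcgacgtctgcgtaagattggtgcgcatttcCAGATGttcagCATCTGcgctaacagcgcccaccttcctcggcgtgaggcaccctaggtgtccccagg
The hippocampal pair differs in CpG content, with an observed over expected CpG ratio of 0.192 for Neurod6 and 0.807 for Prox1. Prox1 holds 1 match of the E-box and Gng4 2, while Neurod6 and Th hold 0. Searched on both strands, the E-box letters were in 11.7% of windows of genes at least 2-fold higher in hippocampus (36 of 309), in 13.8% of those higher in bulb (55 of 399) and in 14.1% of all windows (2202 of 15563). TAATTA was in 1.6%, 3.5% and 4.3%, and TATAAA in 6.8%, 9.3% and 12.1%. Median GC content was 62.7%, 61.7% and 57.7%. These shares describe the letters and were not tested.

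Factors of bulb interneurons were higher in the bulb with few exceptions. Of 21 measured factors of bulb interneurons, 18 were higher in the bulb, 16 of them at least 2-fold, and 1 was higher in hippocampus, the same counts as under centring. The median difference of the list was -2.08, against -0.071 for all genes. Pbx3, a TALE homeobox partner of Hox and Meis proteins, read 7.79, 7.33 and 7.69 in hippocampus and 12.25, 12.09 and 12.25 in olfactory bulb (24.2-fold). Meis2 and Meis1 of the same homeobox class read 12.67, 12.70 and 12.75 and 9.57, 9.06 and 9.59 in bulb and 8.97, 8.94 and 9.09 and 5.83, 5.99 and 5.73 in hippocampus. The differences were -3.71 (SE 0.079, adjusted p = 5.94e-14) and -3.56 (SE 0.137, adjusted p = 2.65e-11). The distal-less genes Dlx1 and Dlx2, which specify GABAergic neurons, differed by -3.23 (SE 0.075) and -2.48 (SE 0.098).

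Zinc finger factors of the same interneurons followed. Tshz1, a teashirt factor, read 8.01, 7.93 and 7.96 in hippocampus and 10.83, 10.84 and 10.71 in olfactory bulb. Sp8 and Sp9, which act in newborn bulb interneurons, differed by -2.19 (SE 0.097) and -2.04 (SE 0.089), and Sp7, better known from bone, by -2.58 (SE 0.099). Zic1 was 6.32-fold higher in the bulb, with hippocampus arrays at 8.16, 6.96 and 7.50, a spread wider than that of the bulb arrays at 10.26, 10.13 and 10.21. Npas1, a bHLH-PAS factor of interneurons, was the member called higher in hippocampus, by 0.89 (SE 0.085, adjusted p = 5.9e-07). Gsx2, a progenitor factor, and Isl1, a LIM homeobox factor of striatal neurons, did not pass (differences -0.11 and 0.06, adjusted p = 0.304 and 0.728).

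Pallial factors were more often higher in hippocampus, with some toward the bulb. Of 28 measured, 15 were higher in hippocampus (10 at least 2-fold) and 7 in the bulb (2 at least 2-fold), with a median of 0.58. Median centring gave 17 and 6. Besides Neurod6, Prdm8 and Prox1, Fezf2, a zinc finger factor of deep-layer projection neurons, read 8.93, 9.04 and 9.05 in hippocampus and 6.54, 6.96 and 7.10 in olfactory bulb, differing by 2.14 (SE 0.120, adjusted p = 1.55e-09). Zfpm2, a GATA cofactor, differed by 1.67 (SE 0.112) and the LIM-only gene Lmo4 by 1.40 (SE 0.074). Cux1, a cut homeobox factor of upper-layer neurons, was the member farthest toward the bulb, with 7.85, 7.78 and 7.82 in hippocampus and 9.22, 9.28 and 9.13 in olfactory bulb, differing by -1.39 (SE 0.064, adjusted p = 1.7e-10). Mef2c, an activity-regulated MADS-box factor, differed by -1.29 (SE 0.091, adjusted p = 2.04e-08), and its relatives Mef2d and Mef2a by -0.42 (SE 0.102) and -0.38 (SE 0.071). Nfia, Bcl11b and Rorb did not pass the test, with differences of 0.09, 0.17 and -0.09, though the mean of the probe sets of Nfia did (0.54, limma adjusted p = 5.14e-05).

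**Figure D2:**
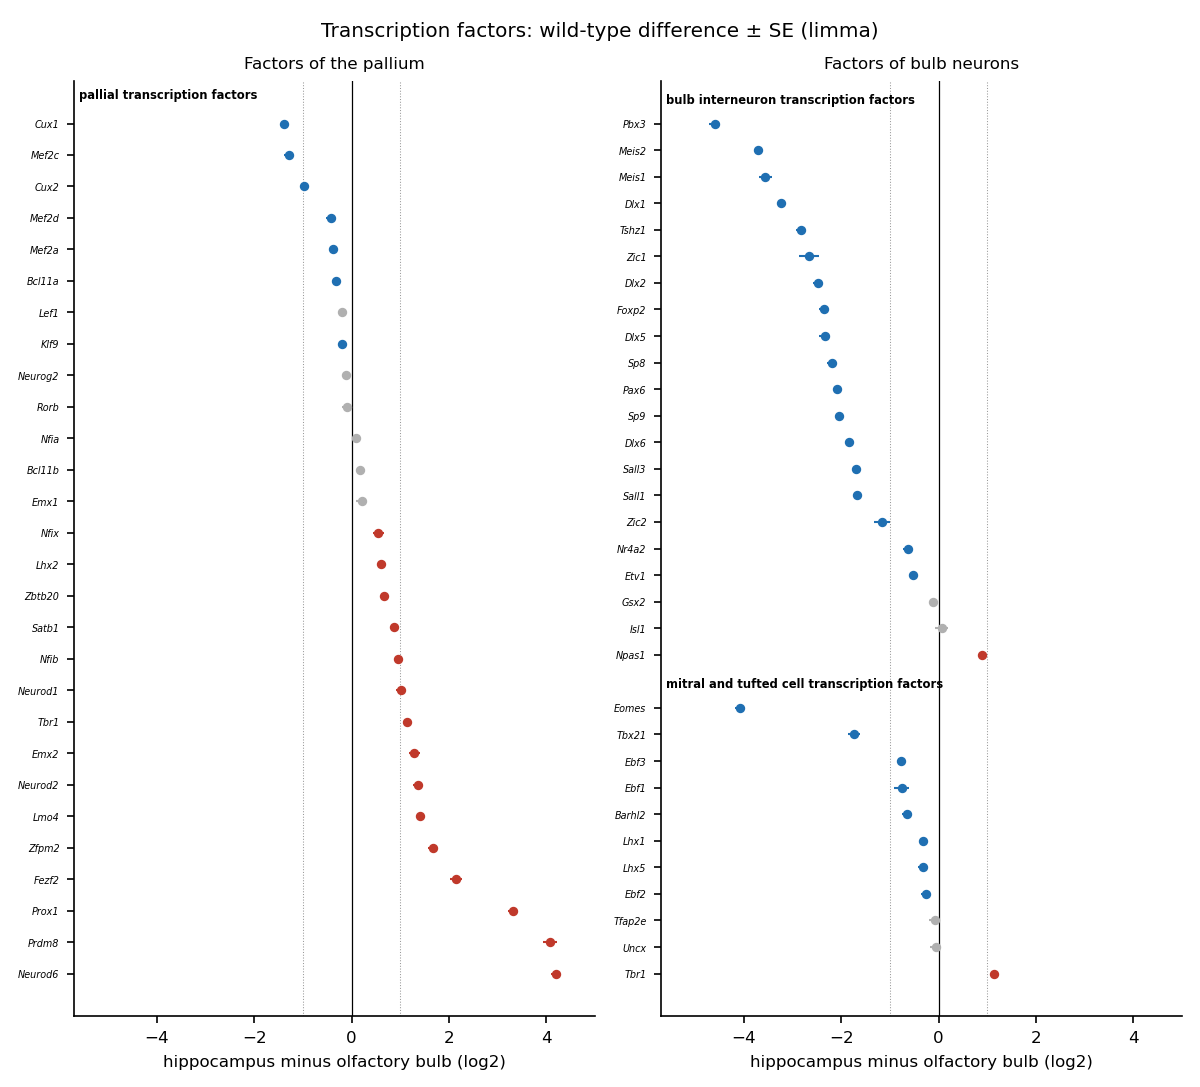
Hippocampus minus olfactory bulb difference (log2) of each measured factor of the pallial list (left) and of the bulb interneuron and mitral and tufted cell lists (right). Points are limma estimates and bars their SE; red marks calls higher in hippocampus, blue calls higher in bulb, grey genes that did not pass, and dotted lines 2-fold.

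Mitral and tufted cells are pallial neurons too, and their factors split. Eomes (Tbr2), which defines them in the adult bulb, read 5.72, 5.57 and 5.34 in hippocampus and 9.73, 9.59 and 9.56 in olfactory bulb (16.9-fold), and Tbx21, a T-box factor of the same cells, read 6.20, 6.03 and 6.21 in hippocampus and 7.94, 7.57 and 8.12 in olfactory bulb, differing by -1.73 (SE 0.120, adjusted p = 1.85e-08). Tbr1, expressed by both cortical and mitral neurons, went the other way, with 8.83, 8.67 and 8.74 in hippocampus and 7.59, 7.70 and 7.53 in olfactory bulb, differing by 1.14 (SE 0.078, adjusted p = 1.57e-08). Of the 11 factors on this list 8 were higher in bulb and 1 in hippocampus (6 and 1 under centring), and of the 8 Eomes and Tbx21 were past 2-fold. Ebf3, Ebf1 and Barhl2 differed by -0.77 (SE 0.068), -0.76 (SE 0.147) and -0.65 (SE 0.098), and Tfap2e and Uncx did not pass (adjusted p = 0.612 and 0.72).

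Other families of factors held single members with large differences. Among 17 LIM genes, Lhx9 differed by 2.05 (SE 0.102, adjusted p = 4.03e-10) and Ldb2, a LIM cofactor, by 1.60 (SE 0.123). Lhx9 is also a marker of the thalamus, which borders the hippocampus. Other markers on that list gave 1.16 (Prkcd) and -0.62 (Tcf7l2), and their part in the result was not tested. Among 7 POU factors, Pou3f4 differed by -1.47 (SE 0.118) and Pou3f3 by 0.73 (SE 0.101). Of 18 Sox factors, 6 (33.3%) were higher in bulb and 0 in hippocampus, or 4 and 1 under median centring, led by Sox4, a factor of newborn neurons, at -1.40 (SE 0.079).

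Nuclear receptors were called in both directions, 12 of 35 (34.3%) each way, or 14 and 11 under centring. Those past 2-fold were in the bulb with 1 exception. Pparg, a receptor of lipid metabolism, read 7.30, 7.21 and 7.16 in hippocampus and 9.38, 9.46 and 9.42 in olfactory bulb, differing by -2.20 (SE 0.068, adjusted p = 2.73e-12). Esrrg, the estrogen-related receptor gamma, differed by -1.59 (SE 0.075), the vitamin D receptor Vdr by -1.18 (SE 0.134) and the retinoid receptor Rxrg by -1.04 (SE 0.068). In hippocampus the mineralocorticoid receptor Nr3c2, which binds corticosterone in CA neurons, differed by 1.61 (SE 0.068, adjusted p = 6.48e-11), and the glucocorticoid receptor Nr3c1 by 0.58 (SE 0.065).

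Genes induced by neuronal activity were more often higher in the bulb. Of 20 immediate early genes, 13 were higher in bulb, 6 at least 2-fold, and 2 in hippocampus (median -0.60; under median centring 12 and 4). Npas4, an activity-dependent bHLH-PAS factor, read 7.68, 8.14 and 8.35 in hippocampus and 10.31, 10.17 and 10.54 in olfactory bulb, differing by -2.28 (SE 0.198, adjusted p = 2.11e-07). Egr1 read 9.38, 9.61 and 9.78 in hippocampus and 10.88, 10.93 and 11.27 in olfactory bulb and Fos 6.72, 7.28 and 7.33 in hippocampus and 8.26, 8.14 and 8.86 in olfactory bulb. Fosb and Dusp1 differed by -1.76 (SE 0.209) and -1.13 (SE 0.141), and the orphan nuclear receptor Nr4a1 by -1.57 (SE 0.177). Bdnf, a neurotrophin and late activity gene, was higher in hippocampus by 0.70 (SE 0.088), as was Nr4a3 by 0.65 (SE 0.113). Junb and Egr3 did not pass (adjusted p = 0.22 and 0.0643). In the hippocampus, the array titled animal 1 read lowest for Npas4, Egr1 and Fos. Its title and animal code point to different bulb arrays. Among clock genes, Per1 and Nfil3 were higher in bulb (-1.07, SE 0.085 and -1.02, SE 0.115) and Tef in hippocampus (0.76, SE 0.074), while Dbp did not pass (-0.01, adjusted p = 0.947).

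**Figure D3:**
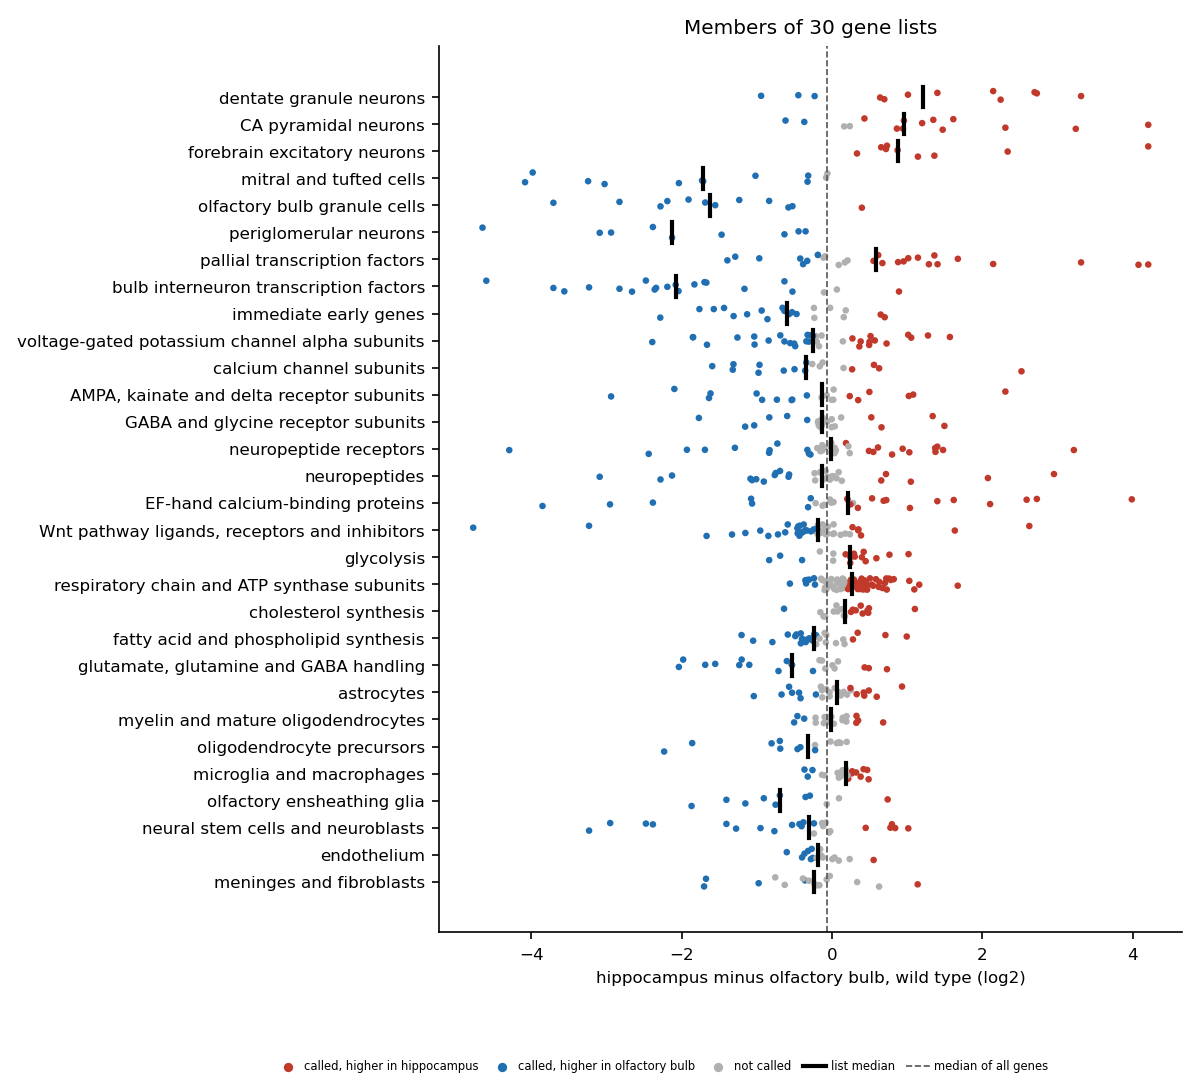
Difference between hippocampus and olfactory bulb (log2) of each measured member of 30 gene lists, 1 point per gene, with red and blue for calls in either direction and grey for genes that did not pass. Black bars mark list medians, from -2.13 for periglomerular neurons to 1.21 for dentate granule neurons, and the dashed line the median of all genes, -0.071.

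Potassium channels differed by member. Of 35 alpha subunits of voltage-gated channels, 12 (34.3%) were higher in hippocampus and 18 (51.4%) in bulb, or 13 and 14 under median centring. The members named differ in branch. Higher in hippocampus were the M-current subunit Kcnq3 (1.28, SE 0.079), the Shaw-type Kcnc4 (1.01, SE 0.092) and the silent subunits Kcng3 (1.57, SE 0.099) and Kcng1 (1.05, SE 0.080), which modify Kv2 channels. The bulb was higher for several members of the ether-a-go-go family, with Kcnh5 at -2.39 (SE 0.112), Kcnh2 at -1.66 (SE 0.094), Kcnh3 at -1.26 (SE 0.076) and Kcnh8 at -1.03 (SE 0.109), and for Kcnb2 (-1.85, SE 0.081) and the silent subunit Kcnf1 (-1.85, SE 0.081). Kcnh1 of the same family did not pass (-0.17, adjusted p = 0.0686).

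The beta subunits of these channels were on opposite sides. Kcnab1 read 10.11, 10.17 and 10.24 in hippocampus and 7.29, 7.45 and 7.38 in olfactory bulb, while Kcnab3 read 7.43, 7.45 and 7.32 in hippocampus and 10.38, 10.23 and 10.03 in olfactory bulb, so the former was 6.96-fold higher in hippocampus and the latter 7.04-fold higher in bulb. Kcnab2 differed by 1.12 (SE 0.077). Among the Kv4 partners, Kcnip1 and Dpp10 were higher in bulb (-2.13, SE 0.068 and -2.31, SE 0.072) and Kcnip2 and Kcnip4 in hippocampus (0.63, SE 0.070 and 0.41, SE 0.079). The sodium-activated channels split as well, with Kcnt2 at 1.58 (SE 0.092, adjusted p = 2.19e-09) and Kcnt1 at -1.55 (SE 0.087, adjusted p = 1.49e-09). Kcnj10, the inward rectifier of astrocytes, was higher in bulb, with 9.49, 9.10 and 9.30 in hippocampus and 10.54, 10.54 and 10.54 in olfactory bulb.

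Calcium and sodium channels also differed by member. Cacna2d3, an alpha2-delta subunit, read 10.16, 10.05 and 10.16 in hippocampus and 7.58, 7.70 and 7.54 in olfactory bulb, differing by 2.52 (SE 0.086, adjusted p = 7.31e-12). The T-type channels Cacna1g and Cacna1i were higher in bulb (-1.59, SE 0.093 and -1.31, SE 0.076), as was the L-type Cacna1d (-1.32, SE 0.073), while the N-type Cacna1b and R-type Cacna1e were higher in hippocampus by 0.63 (SE 0.068) and 0.56 (SE 0.085). The sodium channel subunits Scn2b and Scn8a differed by 1.39 (SE 0.084) and 0.95 (SE 0.074), and Scn2a did not pass (adjusted p = 0.512), though the mean of its probe sets did (0.69, limma adjusted p = 3.78e-07). The pacemaker channels Hcn4 and Hcn3 were higher in bulb (-2.03, SE 0.098 and -1.13, SE 0.087), and Hcn2 did not pass (-0.00, adjusted p = 0.978). Trpc6 was 3.09-fold higher in hippocampus and Trpc7 2.73-fold higher in bulb. Of 19 chloride and anoctamin channels, 11 were higher in bulb and 1 in hippocampus, or 9 and 3 under median centring, led by Ano4 (-1.63, SE 0.086).

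Ionotropic glutamate receptors differed by subunit. Gria2 and Gria3 did not pass (adjusted p = 0.841 and 0.145), Gria1 was higher in hippocampus (0.50, SE 0.064) and Gria4 in bulb (-1.64, SE 0.080). The kainate receptor gene Grik4, known from CA3 and dentate neurons, read 10.14, 9.99 and 10.02 in hippocampus and 7.66, 7.93 and 7.65 in olfactory bulb, differing by 2.31 (SE 0.089, adjusted p = 2.7e-11), and Grik3 differed by -2.10 (SE 0.081, adjusted p = 2.77e-11). The AMPA receptor auxiliary proteins also parted. Cacng8 and Cnih2 were higher in hippocampus (1.08, SE 0.090 and 1.02, SE 0.067), and Cacng5 and Cacng7 in bulb (-2.94, SE 0.102 and -1.62, SE 0.082). Among NMDA receptor subunits Grin2a differed by 1.02 (SE 0.070) and Grin2d by -1.07 (SE 0.093), while Grin2b did not pass (0.03, adjusted p = 0.699). Of the metabotropic receptors, Grm4 and Grm8 were higher in bulb (-3.18, SE 0.079 and -2.69, SE 0.115) and Grm5 and Grm7 in hippocampus (0.41, SE 0.063 and 0.41, SE 0.078).

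The main genes of GABA synthesis and vesicular loading were higher in the bulb. Gad1, the main GABA-synthesising enzyme, read 10.73, 10.84 and 10.83 in hippocampus and 12.47, 12.45 and 12.54 in olfactory bulb, differing by -1.69 (SE 0.065, adjusted p = 2.77e-11), and Gad2 and the vesicular carrier Slc32a1 differed by -1.55 (SE 0.080) and -1.23 (SE 0.091). The transporter gene Slc6a11 (GAT-3), expressed by astrocytes, read 10.58, 10.48 and 10.74 in hippocampus and 12.56, 12.58 and 12.60 in olfactory bulb. The vesicular glutamate transporters went opposite ways, with Slc17a7 at 12.10, 12.11 and 12.02 in hippocampus and 11.33, 11.43 and 11.28 in olfactory bulb and Slc17a6 at 6.12, 5.73 and 6.16 in hippocampus and 7.86, 8.30 and 7.97 in olfactory bulb. Both are markers of excitatory neurons. Of the 21 genes for handling of glutamate, glutamine and GABA, 11 were higher in bulb and 3 in hippocampus, or 10 and 3 under centring. GABA and glycine receptor subunits were called at shares nearer to those of all genes, with 4 of 23 higher in hippocampus and 6 in bulb, or 5 and 5 under centring. Gabra3 and the glycine receptor Glra1 were higher in bulb (-1.77, SE 0.100 and -1.16, SE 0.091), Gabrb1 and the GABA-B subunit Gabbr2 in hippocampus (1.34, SE 0.065 and 1.49, SE 0.071), and Gabra5 and Gabrb2 did not pass (adjusted p = 0.19 and 0.952).

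Receptors for monoamines and acetylcholine gave a few large differences. The serotonin receptors Htr4 and Htr1a were higher in hippocampus, with Htr4 at 8.84, 9.05 and 8.97 in hippocampus and 6.79, 6.74 and 6.92 in olfactory bulb and differences of 2.13 (SE 0.105) and 1.41 (SE 0.112). Htr1d was higher in bulb (-1.14, SE 0.087). The dopamine receptor gene Drd5 read 8.82, 8.83 and 8.62 in hippocampus and 6.57, 6.80 and 6.43 in olfactory bulb, differing by 2.16 (SE 0.126, adjusted p = 2.41e-09), while Drd2 and Drd1 did not pass (adjusted p = 0.404 and 0.0663). Muscarinic Chrm2 and Chrm4 were higher in bulb (-3.52, SE 0.091 and -1.05, SE 0.094) and Chrm1 and Chrm3 in hippocampus (0.70, SE 0.078 and 0.49, SE 0.071). Among nicotinic subunits Chrna7 was higher in hippocampus (1.23, SE 0.073) and Chrna10, Chrna3 and Chrnb4 in bulb (-2.15, SE 0.080, -1.47, SE 0.118 and -1.27, SE 0.140). The cannabinoid receptor Cnr1 read 9.01, 9.09 and 9.12 in hippocampus and 7.35, 7.48 and 7.17 in olfactory bulb, and the delta opioid receptor Oprd1 differed by -1.18 (SE 0.113).

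Neuropeptides and their receptors were on opposite sides for some pairs. Somatostatin (Sst) was higher in hippocampus, with 11.63, 11.07 and 11.18 in hippocampus and 9.38, 9.54 and 8.74 in olfactory bulb, differing by 2.07 (SE 0.201, adjusted p = 6.99e-07), and its receptors Sstr1, Sstr2 and Sstr4 were higher there too (1.48, SE 0.119, 1.37, SE 0.105 and 1.40, SE 0.081), while Sstr3 did not pass (adjusted p = 0.954). Thyrotropin-releasing hormone (Trh), a periglomerular peptide, read 5.58, 5.69 and 5.63 in hippocampus and 8.78, 8.96 and 8.43 in olfactory bulb, whereas its receptor Trhr was higher in hippocampus (1.03, SE 0.145). Cholecystokinin (Cck) was higher in hippocampus (0.72, SE 0.091) and its receptor Cckbr in bulb, with 7.03, 7.16 and 7.15 in hippocampus and 9.57, 9.52 and 9.57 in olfactory bulb. Neuropeptide Y (Npy) was higher in bulb (-0.91, SE 0.136) and Npy2r in hippocampus. For neuromedin B both the peptide Nmb and the receptor Nmbr were higher in bulb (-2.13, SE 0.099 and -1.29, SE 0.139). The bulb was also higher for enkephalin (Penk, -2.28, SE 0.089), the substance P receptor Tacr1 (-1.93, SE 0.091) and the corticotropin-releasing hormone Crh with its receptor Crhr1 (-1.06, SE 0.106 and -1.69, SE 0.101). These are transcripts of whole tissue and do not place peptide and receptor in the same cells.

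Enzymes downstream of calcium and cAMP included close relatives on opposite sides. Adcy1, a calmodulin-stimulated adenylyl cyclase, read 11.18, 11.23 and 11.22 in hippocampus and 8.71, 8.91 and 8.82 in olfactory bulb and Adcy8, another calmodulin-stimulated cyclase, differed by -1.64 (SE 0.065, adjusted p = 3.69e-11). Pde1a and Pde1c, calmodulin-dependent phosphodiesterases, differed by 2.55 (SE 0.079, adjusted p = 2.73e-12) and -1.53 (SE 0.075, adjusted p = 3.72e-10). Among the CaM kinases, Camk2a was higher in hippocampus (13.41, 13.46 and 13.47 in hippocampus and 12.77, 12.74 and 12.86 in olfactory bulb) and Camk2d in bulb (8.60, 8.46 and 8.70 in hippocampus and 10.24, 10.18 and 10.19 in olfactory bulb), while Camk2b and Camk2g did not pass (adjusted p = 0.997 and 0.332). The calcineurin subunits Ppp3ca and Ppp3r1 were higher in hippocampus (0.93, SE 0.062 and 1.28, SE 0.073) and Ppp3cc in bulb (-1.62, SE 0.071). Plcb4 differed by -2.41 (SE 0.135), and Plcb1 did not pass (adjusted p = 0.733).

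Calcium-binding proteins parted in the same manner. Of 28 EF-hand genes, 13 were higher in hippocampus (7 at least 2-fold) and 7 in bulb (5 at least 2-fold), or 15 and 5 under centring. Hippocalcin (Hpca) read 12.61, 12.41 and 12.43 in hippocampus and 10.13, 10.04 and 9.52 in olfactory bulb, differing by 2.59 (SE 0.133, adjusted p = 5.58e-10), and Hpcal1 and parvalbumin (Pvalb) differed by 2.10 (SE 0.116) and 1.40 (SE 0.112). Calretinin (Calb2), the marker of a periglomerular and granule cell class, read 9.48, 9.27 and 9.39 in hippocampus and 11.82, 11.71 and 11.76 in olfactory bulb, and S100a5, a protein of olfactory sensory neurons, 6.24, 5.99 and 5.83 in hippocampus and 9.19, 9.09 and 8.63 in olfactory bulb. Pcp4l1, a small calmodulin-binding protein, was higher in bulb (-2.73, SE 0.105) while Necab2 did not pass (adjusted p = 0.32).

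Growth factor and Wnt genes were more often called toward the bulb. Of 50 Wnt pathway genes, 24 were higher in bulb and 6 in hippocampus, or 20 and 7 under median centring. Besides the R-spondin receptors, the Wnt inhibitors Sfrp1 and Frzb and the ligand Wnt5a were higher in bulb (-1.67, SE 0.197, -1.15, SE 0.101 and -1.33, SE 0.099). Dkk3, a Dickkopf relative, read 10.02, 10.11 and 10.09 in hippocampus and 7.32, 7.63 and 7.39 in olfactory bulb, and the R-spondin gene Rspo2 was higher in hippocampus (1.63, SE 0.172), opposite to the receptors Lgr5 and Lgr6. Of 29 growth factor receptors, 16 were higher in bulb and 5 in hippocampus (15 and 6 under centring), among them Erbb3, a neuregulin receptor (-1.50, SE 0.080), Fgfr2 (-1.12, SE 0.073) and Ret, the co-receptor of GDNF ligands (-1.03, SE 0.070). Gfra1, which binds GDNF for Ret, was higher in hippocampus (1.20, SE 0.088). Epha7 and Epha4 were higher in hippocampus (1.94, SE 0.080 and 1.81, SE 0.065) and Efna5, an ephrin that binds both, in bulb (-0.94, SE 0.072).

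Subunits of energy metabolism were more often higher in hippocampus, by small amounts. Of 79 subunits of the respiratory chain and ATP synthase, 46 were higher in hippocampus and 7 in bulb, but 4 at least 2-fold. The median difference was 0.26 as deposited, 0.38 under median centring and 0.25 after quantile normalization, with 54 and 2 called under centring. Subunits were grouped into complexes by gene name alone, which need not place every member correctly. Of 36 Nduf genes, most of them of complex I, 23 were higher in hippocampus and 1 in bulb. The counts were 5 and 1 of 9 genes grouped as complex III, 8 and 2 of 17 Cox genes and 10 and 3 of 17 of ATP synthase. Ndufb6, a complex I accessory subunit, read 11.61, 11.64 and 11.79 in hippocampus and 9.90, 10.03 and 10.09 in olfactory bulb, differing by 1.67 (SE 0.079, adjusted p = 2.34e-10). Ndufa1, Ndufa4 and the small ATP synthase subunit Atp5md differed by 1.16 (SE 0.101), 1.03 (SE 0.096) and 1.09 (SE 0.109). Ndufs7, a core subunit, went the other way (-0.56, SE 0.074, adjusted p = 1.81e-05), as did the catalytic ATP synthase subunit Atp5b (-0.33, SE 0.061, adjusted p = 0.000402).

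**Figure D4:**
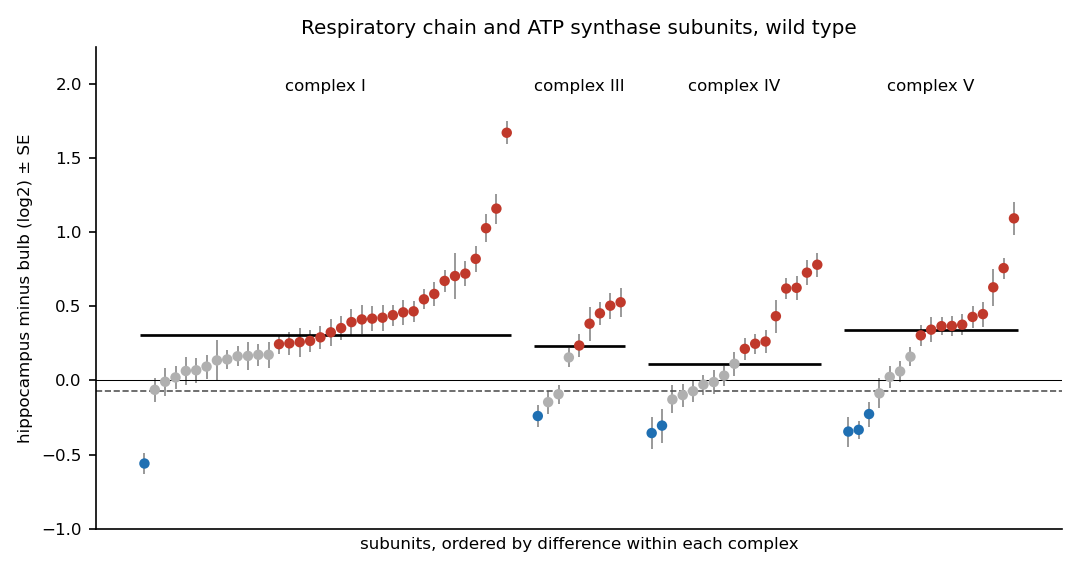
Difference (log2, limma estimate ± SE) of 79 subunits, ordered within each complex, with red and blue for calls higher in hippocampus and bulb and grey for genes that did not pass. Complexes were assigned by gene name. Black bars are medians of each group (0.308, 0.236, 0.113 and 0.343 for those labelled complexes I, III, IV and V), all above the dashed median of all genes.

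Genes of glycolysis and lipid synthesis differed by member. Of 17 glycolytic genes, 11 were higher in hippocampus and 3 in bulb, as under centring, but 8 and 4 after quantile normalization. The phosphofructokinase isoforms went opposite ways, with the liver type Pfkl at 1.02 (SE 0.066, adjusted p = 7.87e-09) and the platelet type Pfkp at -0.84 (SE 0.072, adjusted p = 1.99e-07), and so did the lactate dehydrogenase subunits Ldha (0.45, SE 0.081) and Ldhb (-0.69, SE 0.075). Of 19 cholesterol synthesis genes, 9 were higher in hippocampus and 1 in bulb, or 12 and 1 under centring, led by the sterol oxidase Msmo1 (1.10, SE 0.089). Lanosterol synthase Lss was the exception (-0.64, SE 0.090). Of 29 genes of fatty acid and phospholipid synthesis, 17 were higher in bulb and 4 in hippocampus, or 10 and 5 under centring. The desaturase Scd1 and the elongases Elovl7 and Elovl5 differed by -1.20 (SE 0.091), -1.05 (SE 0.115) and -0.79 (SE 0.083). Genes of fatty acid oxidation were called in 8 of 24 cases, 4 in each direction, or 6 in hippocampus and 3 in bulb under centring.

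Steroid, retinoid and energy-buffer enzymes added single genes. Cyp7b1, which hydroxylates oxysterols and neurosteroids, read 9.39, 9.15 and 9.37 in hippocampus and 7.53, 7.36 and 7.68 in olfactory bulb, and Hsd11b1, which regenerates corticosterone, 7.89, 7.58 and 7.72 in hippocampus and 5.97, 6.35 and 5.75 in olfactory bulb. Both were higher in hippocampus. Akr1c18, a hydroxysteroid dehydrogenase that inactivates progesterone, and Cyp27a1, a sterol hydroxylase, were higher in bulb (-1.41, SE 0.132 and -1.26, SE 0.083). The mitochondrial creatine kinase Ckmt1 was higher in hippocampus (0.92, SE 0.093), and the brain-type Ckb and the creatine transporter Slc6a8 in bulb (-0.65, SE 0.069 and -1.03, SE 0.088). Crabp1, a cytosolic retinoic acid binder, differed by -1.07 (SE 0.153).

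General astrocyte markers were close between the tissues, at a list mean of 10.02 to 10.09 in hippocampus and 9.99 to 10.10 in olfactory bulb. Of 28, 7 (25.0%) were higher in each tissue, or 11 in hippocampus and 6 in bulb under centring. Clu, an apolipoprotein, was higher in hippocampus (0.93, SE 0.086) and Cldn10 too (0.59, SE 0.081). The bicarbonate transporter Slc4a4 (-1.04, SE 0.079), the glutamate transporter Slc1a3 (-0.53, SE 0.071) and the water channel Aqp4 (-0.42, SE 0.080) were higher in bulb, whereas the transporter Slc1a2 was higher in hippocampus (0.49, SE 0.066). Apoe and Ndrg2 did not pass (adjusted p = 0.74 and 0.0543).

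Oligodendrocyte genes were read as mature and precursor lists. Of 19 genes of myelin and mature oligodendrocytes, 4 were higher in hippocampus and 3 in bulb (7 and 2 under centring), 0 of them at least 2-fold, with Mbp at 0.35 (SE 0.067) and Cnp not passing (adjusted p = 0.234). Of 14 precursor genes, 8 were higher in bulb and 0 in hippocampus, or 6 and 2 under centring. The largest differences were those of Pcdh15, a protocadherin, at 7.05, 6.89 and 7.23 in hippocampus and 9.30, 9.33 and 9.25 in olfactory bulb, and Lhfpl3 (-1.86, SE 0.085). The receptor Pdgfra, which defines precursors, did not pass (0.06, adjusted p = 0.546), nor did Olig1 and Gpr17 (adjusted p = 0.333 and 0.103).

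Microglial genes showed small differences. Of 22, 8 (36.4%) were higher in hippocampus and 3 (13.6%) in bulb, 0 at least 2-fold, and 16 and 2 under centring. Genes of the complement complex C1q differed in sign, with C1qa at 0.49 (SE 0.085) and C1qb at -0.37 (SE 0.090). C1qc stood at -0.26 (SE 0.091), a call lost in 6 of 15 alternative fits, median centring among them (adjusted p = 0.255, limma). Cx3cr1 did not pass (0.09, adjusted p = 0.336). Of 11 ensheathing glia markers, 8 were higher in bulb and 1 in hippocampus, or 7 and 1 under centring. Fabp7, a fatty acid-binding protein also made by other glia and progenitors, read 11.71, 11.59 and 11.71 in hippocampus and 13.62, 13.54 and 13.45 in olfactory bulb, and Frzb, Mybpc1 and Foxd3 differed by -1.15 (SE 0.101), -1.40 (SE 0.115) and -0.75 (SE 0.096). Prss56 and Gldn did not pass (adjusted p = 0.539 and 0.482).

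Genes of stem cells and neuroblasts were called in both directions, more of them toward the bulb. Doublecortin (Dcx), the microtubule-binding protein of migrating neuroblasts, read 8.39, 8.30 and 8.35 in hippocampus and 11.31, 11.25 and 11.33 in olfactory bulb, differing by -2.95 (SE 0.063, adjusted p = 5.94e-14). Cd24a, a surface protein of neuroblasts, differed by -1.28 (SE 0.111). Of 24 genes of stem cells and neuroblasts, 13 were higher in bulb (6 at least 2-fold) and 5 in hippocampus, or 10 and 5 under centring. The 6 include Dlx1 (-3.23), Dlx2 (-2.48) and Calb2 (-2.38), which are described above with bulb interneurons, so the count is not one of neuroblasts alone. Neurod1, a factor of newborn dentate granule cells, was higher in hippocampus (1.01, SE 0.096), while Sox2 and Egfr did not pass (adjusted p = 0.747 and 0.209). Tissue samples also carried other cells. Olfactory marker protein (Omp), made by olfactory sensory neurons and brought in by their axons, read 7.03, 7.26 and 6.92 in hippocampus and 8.90, 8.94 and 8.78 in olfactory bulb. The list of sensory axon and mucosa genes had a mean of 6.55 to 6.66 in hippocampus and 6.96 to 7.35 in olfactory bulb, with 5 of 16 called in each direction, or 5 in hippocampus and 3 in bulb under centring. Cyp2g1, an enzyme of the olfactory mucosa, did not pass (adjusted p = 0.0886) and was high in 1 bulb array alone (8.29, 5.68 and 5.55). That array also read highest for Stoml3, and the part of mucosal RNA in the result was not tested.

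Markers of bordering tissues were uneven. Transthyretin (Ttr), of choroid plexus, read 11.66, 8.80 and 9.80 in the hippocampus arrays and 9.29, 8.76 and 8.93 in the bulb arrays, and did not pass (adjusted p = 0.104). Klotho (Kl), on the same list, did (1.34, SE 0.084, adjusted p = 5.62e-09), and 2 of 11 members were higher in hippocampus and 1 in bulb, as under centring. The meningeal list had a mean of 7.21 to 8.03 in hippocampus and 7.65 to 8.13 in olfactory bulb. Of its 17 members, 12 did not pass, 4 were higher in bulb and 1 in hippocampus, or 3 and 1 under centring. Those past 2-fold were Islr and Bgn in bulb (-1.70, SE 0.140 and -1.68, SE 0.176) and Lum in hippocampus (1.14, SE 0.160). Of 8 striatal markers 2 were called in each direction, 0 at least 2-fold, or 4 in hippocampus and 2 in bulb under centring. Endothelial genes were called in 1 of 16 cases toward hippocampus and 7 toward bulb, or 3 and 2 under centring. The part of these cells in the results above was not tested.

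The knockout mice are different animals from the wild-type mice, and no array is shared by the tissue comparisons of the genotypes, though 1 estimate of the spread serves both. Of the 427 genes at least 2-fold higher in wild-type hippocampus, 426 were called in the same direction in the knockout and 355 at least 2-fold; of the 526 of the bulb, 526 and 461. In the knockout 19.2% of all genes were called higher in hippocampus and 19.9% in bulb. Past 2-fold there were 424 genes (2.13%) higher in hippocampus and 536 (2.69%) in bulb. Differences between the genotypes in the tissue contrast were called for 3 genes (0.015%), 1 of them among the 2-fold genes. That gene, Sv2c, a synaptic vesicle glycoprotein named for this test result, read 8.25, 8.31 and 8.32 in hippocampus and 9.58, 9.80 and 9.84 in olfactory bulb in wild type, a difference of -1.45 against -2.39 in the knockout. Among the leading genes, the differences in wild type and knockout were as follows for Neurod6 (4.20 and 3.88), Cabp7 (3.99 and 4.19), Cpa6 (-4.81 and -4.59) and Th (-4.65 and -4.47). Stoml3 differed more (-3.19 and -2.10), but its interaction did not pass (adjusted p = 0.485). Immediate early genes had a median of -0.60 in wild type and -0.15 in the knockout, a difference of medians that was not tested.

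**Figure D5:**
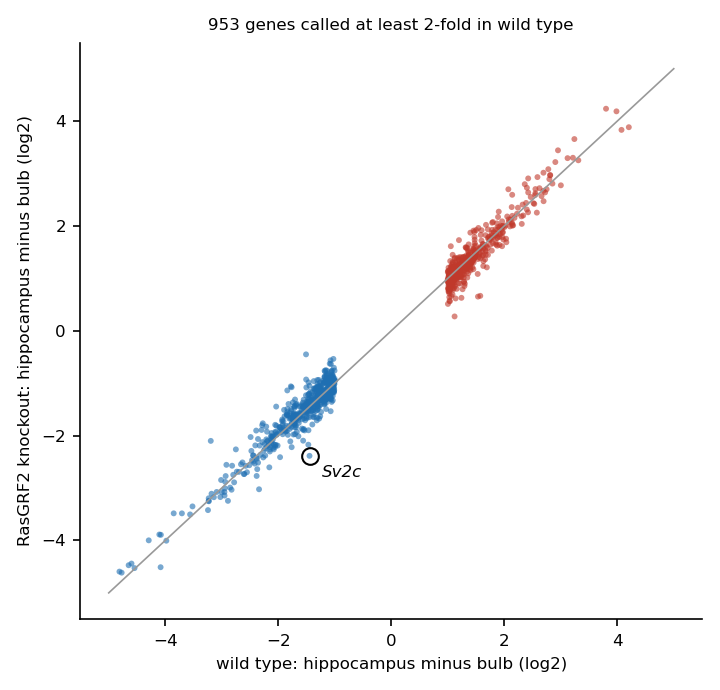
Tissue difference (log2) in RasGRF2 knockout against that in wild type for the 953 genes called at least 2-fold in wild type, red for higher in hippocampus and blue for higher in bulb. The grey line marks equal differences, and the ring marks Sv2c, at -1.45 and -2.39.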

How the data were processed

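Total RNA was extracted with Trizol and labelled with biotin, per the labels' protocols. The values deposited are log2 intensities, 1 for each probe set on each array, from RMA and the oligo package per the submitters' processing notes. No source used here gives the versions or says whether both tissues went through RMA jointly. RMA corrects background and quantile-normalizes, so it can hide a global shift and compresses differences near background. Of 35556 probe sets, 21789 had 1 gene symbol in the platform annotation (1621 several, 12146 unlisted). Each of 19938 genes was read from its probe set of highest mean over the 12 arrays, with no filter on signal; 999 genes had several, and for 11 of the 529 called among these another probe set was called the opposite way (0 of 65 past 2-fold). Entrez identifiers matched 21698 probe sets to RefSeq GRCm38.p6, with 0 symbols changed. Promoter windows were found for 15563 genes by identifier, and for 2628 with more than 1 window the first listed was used.

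Differences were tested with limma 3.58.1 (lmFit, eBayes) in R 4.3.3, in 1 model of 4 groups over 12 arrays without a replicate block, with Benjamini-Hochberg adjustment over all genes at 0.05. In each of 20 simulations of this comparison, 200 of 19938 genes were changed, with independent normal noise. There 90.3% of log2 changes of 0.5 and 99.8% of changes of 1 were called. In the data 40.9% of genes were called, so these shares need not hold for them. Arrays carry no depth, and their number, 3 per group, limits precision. In 2 wild-type animals the title's number and the animal's code pair the tissues differently. Correlations of deviations between wild-type arrays of the same animal were mixed in sign by number (0.25, -0.15 and -0.07) and by code (0.12, -0.255 and -0.07). With 3 arrays per group these cannot decide the pairing, and the tissues are treated as unpaired.

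The members and the 67 lists (1340 of 1429 entries measured) were chosen with earlier results of these data known. Genes named are the 20 largest in each direction and, from each list, up to 6 called in each direction and 3 that were not; clone, predicted, small RNA and chemoreceptor genes are counted, not named. Figures were drawn with matplotlib.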

Additional observations from a re-analysis of the deposited data

Results flagged for a closer look

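The tissue difference differed between wild-type and knockout animals for 3 genes, by limma's interaction test adjusted over all genes. Armh4 was higher in hippocampus by 0.42 in wild type and at -0.58 in the knockout, a difference between genotypes of 0.997 (adjusted p = 0.00875). Its wild-type arrays read 9.11, 8.79 and 9.00 in hippocampus and 8.60, 8.59 and 8.46 in olfactory bulb. For Pla2g4e, a cytosolic phospholipase A2, the difference was 0.16 in wild type, which did not pass (adjusted p = 0.191), and -0.91 in the knockout, 1.06 apart (adjusted p = 0.00875). Sv2c stood at -1.45 and -2.39, 0.94 apart (adjusted p = 0.0318). Groups of 3 arrays are too small for a test of outlying arrays.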

How the results depend on the processing

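All counts of calls stayed within 1.5 times of those reported under array weights, trend and robust moderation, the 6 wild-type arrays alone, quantile normalization, the mean of a gene's probe sets and with dim genes left out. With the animal code as a replicate block 7478 genes were called, and with the title's number 7718, and both blocks kept every 2-fold call. Median centring lowered the calls toward bulb to 2888 and turned the split past 2-fold, to 546 toward hippocampus and 434 toward bulb. Every probe set gave 693 and 916 calls of at least 2-fold toward hippocampus and bulb, with more features tested. Testing against 2-fold (treat) gave 214 and 287. Log2 thresholds of 0.5 and 2 gave 1500 and 1715, and 62 and 109. Leaving out each wild-type array gave 6813 to 7714 calls, 411 to 453 of them 2-fold toward hippocampus and 518 to 569 toward bulb. In every fit over genes other than treat, the 427 and 526 genes past 2-fold were called in the same direction where they were tested. These genes, and many of those named, were picked for their size in the same arrays, which made that likely beforehand. Of the 263 called genes named in the text, 260 were called in every one of these fits. The exceptions were C1qc, Dpp6 and Rasgrf2, with adjusted p of up to 0.255, 0.101 and 0.102. Of the 39 named genes that did not pass, 23 passed in none of these fits and 16 in at least 1, among them Scn2a and Nfia with the mean of their probe sets, Drd1 in 5 of 14 fits, and Egr3, Kcnh1 and Ndrg2 in 4 of 15 each. Dpp6, a Kv4 partner subunit, reversed from 0.22 to -0.73 with the mean of its probe sets, which disagree.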

Other observations

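The gene families below were picked after their values were seen, so they carry no test and the counts only describe them. Of all genes, 17.5% were called higher in hippocampus and 23.4% in bulb, and 2.14% and 2.64% past 2-fold. Family counts are as deposited and were not repeated under median centring, which lowers calls toward bulb. Guidance ligands of different classes lay on opposite sides. The genes of all 3 Slit ligands, which repel axons through Robo receptors, were at least 2-fold higher in hippocampus, with Slit1 at 2.55 (SE 0.068), Slit2 at 2.02 (SE 0.092) and Slit3 at 1.31 (SE 0.071). Of 7 class 3 semaphorins, 4 were higher in bulb and 1 in hippocampus, led by Sema3a (-2.23, SE 0.086). Their co-receptors Nrp1 and Nrp2 were higher in hippocampus (1.85, SE 0.083 and 1.61, SE 0.075). Slit1 read 10.84, 10.79 and 10.85 in hippocampus and 8.24, 8.34 and 8.24 in olfactory bulb, and Sema3a read 6.50, 6.34 and 6.39 in hippocampus and 8.70, 8.75 and 8.47 in olfactory bulb. Adhesion genes were mixed. Of 23 cadherins, 13 were higher in bulb and 3 in hippocampus, with Cdh6 and Cdh4 at -2.11 (SE 0.085) and -2.05 (SE 0.069) and Cdh8 and Cdh11 at 1.75 (SE 0.068) and 1.25 (SE 0.076).

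Secreted synapse organisers of the C1q superfamily also parted, with 3 of 4 cerebellins at least 2-fold higher in bulb (Cbln1 at -2.49, SE 0.100) and 2 of 4 C1q-like genes at least 2-fold higher in hippocampus (C1ql2 at 2.14, SE 0.119). Synaptotagmins differed member by member, with Syt6, Syt10 and Syt9 in bulb (-2.63, -2.39 and -1.71) and Syt17, Syt13 and Syt16 in hippocampus (1.45, 1.09 and 1.05). Of 7 heparan sulfate 3-O-sulfotransferases, 4 were at least 2-fold higher in bulb and Hs3st4 in hippocampus (1.36, SE 0.077). Of 11 bone morphogenetic protein genes, 7 were higher in bulb and 0 in hippocampus. Of 61 cytosolic ribosomal protein genes, 45 were higher in hippocampus and 0 in bulb, with a median of 0.52 and 3 past 2-fold. Near-identical pseudogene copies of these ribosomal genes can share their probes, so the values of single members are uncertain.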
